A study of Caenorhabditis elegans with 16 samples.

Results

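A group of 48 genes that copy and divide the genome was followed across 16 RNA-seq libraries of Caenorhabditis elegans embryos. The genes were chosen by name, and each symbol was looked up in the deposited table of gene counts. All 48 were found among its 46726 genes, and all 48 were among the 16880 genes kept by a filter on low counts. The embryos came from edc-3(ok1427) mutants (strain RB1311), edc-4(qe49) mutants (strain FD135), double mutants with both alleles (strain FD146 in the sample labels, whereas the series text gives FD135 for them too) and wild-type N2 worms (WT). EDC-3 and EDC-4 are known as enhancers of mRNA decapping, the step that removes the cap of an mRNA and commits it to decay. Per the labels, all groups were mixed-stage embryos released by bleaching from worms grown in parallel at 16 °C without treatment, and each genotype had 4 independent biological replicates, numbered 2 to 5. Each library was made from total RNA of a whole embryo pellet, so every value is an average over embryos of many ages and over all their cells. The question put to the group was whether levels of these genes differed with either allele or with both.

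Before a cell divides, origins of replication are licensed by the origin recognition complex and the MCM helicase, the helicase is activated, and the DNA is copied with nucleotides made by ribonucleotide reductase. Cyclin-dependent kinases then drive entry into mitosis, centrosomes and motors build the spindle, kinetochores attach chromosomes to it, and the chromosomal passengers and centralspindlin complete cytokinesis. The first embryonic divisions of C. elegans are rapid and run on mRNA and protein loaded by the mother, and most cells stop dividing as the embryo begins to take shape.

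The libraries held 34.1 to 52.9 M counts in all, and the 48 genes took 0.664% to 1.25% of them. The edc-4 transcript stood at 29.4 to 35.3 CPM (each count relative to its library's total, here scaled with TMM factors that balance RNA composition) in edc-4 and 20.4 to 30.96 CPM in the double mutant, against 139 to 183 CPM in WT (exact two-sided permutation p = 0.0286 for each). The edc-3 transcript stood at 57.4 to 69.2 CPM in edc-3 (exact p = 0.0286) and 64.98 to 82.4 CPM in the double mutant (exact p = 0.143), against 70.8 to 97.7 CPM in WT. The label of mixed-stage embryos was checked with marker lists. Of the listed genes, 40 of 42 early zygotic, 11 of 12 intestine and all genes of the other marker lists were found in the deposited counts. Among the genes found, the filter on low counts kept 40 of 40 early zygotic, 38 of 38 muscle, 14 of 16 epidermis, 11 of 11 intestine and 17 of 17 neuron genes. Of 31 sperm genes 8 were at 0 in every library and the list summed to 0.953 to 2.25 CPM, and 6 yolk protein genes made by the adult intestine summed to 0.989 to 2.74 CPM. A list of 19 oocyte genes summed to 1049 to 2188 CPM in edc-3, 1093 to 1553 CPM in edc-4 and 1609 to 1921 CPM in the double mutant, against 473 to 1616 CPM in WT. An embryo age score was computed as the mean log2 CPM of 38 muscle genes minus that of 40 early zygotic genes, centred on 0, so that a library rich in older embryos scores high. The 4 libraries numbered 4 stood apart on this score: edc-3 replicate 4 was at -0.59, edc-4 replicate 4 at -1.31 and double mutant replicate 4 at -1.49, each the lowest of its genotype, whereas WT replicate 4 was at 1.05, the highest of all 16. WT replicate 4 had the lowest early zygotic mean (log2 1.97), but its muscle mean (7.34) was below that of edc-4 replicate 2 (7.51). Intestine and neuron genes also summed higher in edc-4 replicate 2 (729 and 752 CPM) than in WT replicate 4 (653 and 686 CPM). Epidermis genes did not (7779 against 7830 CPM). The mean score was 0.0041 for edc-3, -0.076 for edc-4 and -0.35 for the double mutant, against 0.42 in WT.

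Most of the 48 genes were highly expressed in WT embryos. Scaled per kilobase of exon, 46 of the 48 lay above the median of 14510 tested protein-coding genes (10.5 CPM per kb), and 27 lay in the top 10%. Their own median was 69.7 CPM per kb. The highest was cyb-3, a B-type cyclin that drives mitosis, at 693 CPM per kb. Next came rnr-2, the small subunit of ribonucleotide reductase, at 363 CPM per kb and mcm-7, a helicase subunit, at 208 CPM per kb. The lowest were klp-7, a kinesin that takes microtubules apart, at 17.1 CPM per kb, cdk-2, the kinase that partners cyclin E, at 9.54 CPM per kb, and plk-2, a Polo-like kinase with a known role in meiotic chromosome pairing, at 8.61 CPM per kb. These means run over an 80.5-fold range.

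**Figure D1:**
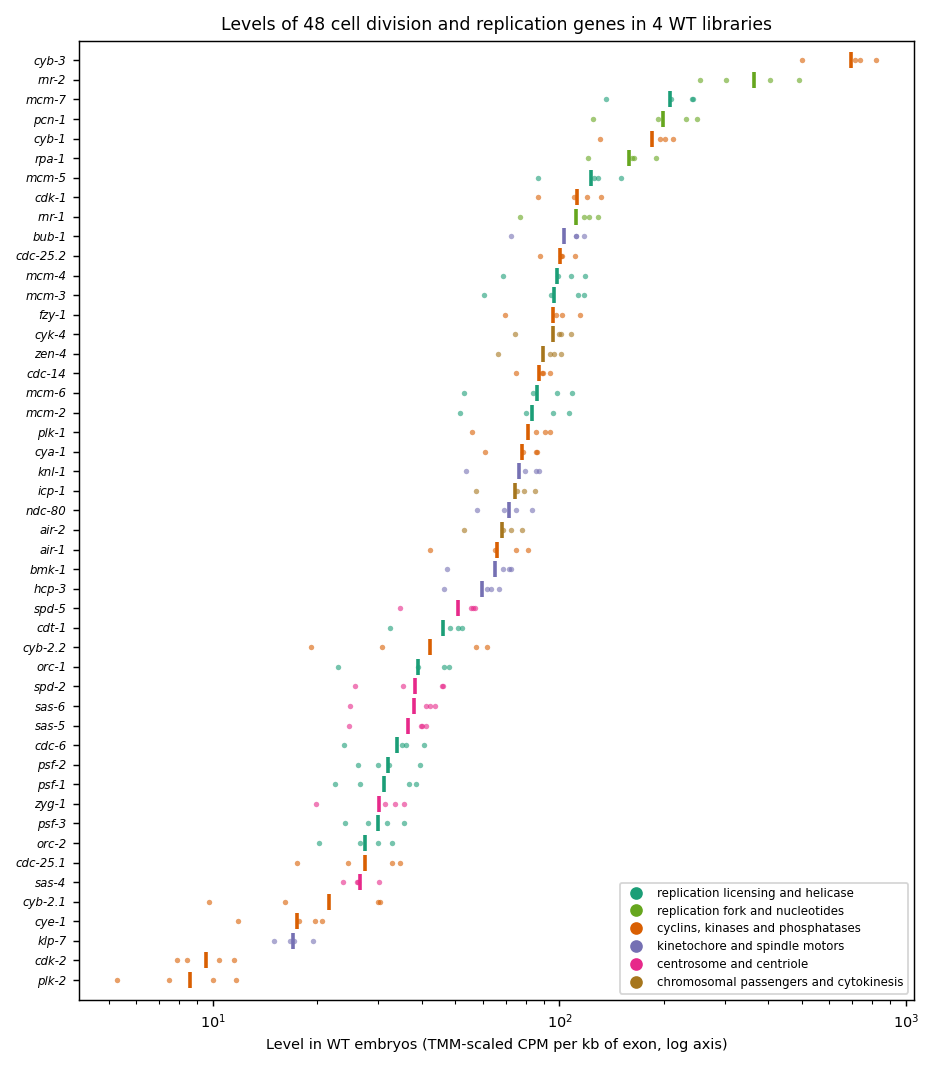
Level of each gene in WT embryos (TMM-scaled CPM per kb of exon, log axis), with a point for each of the 4 WT libraries, a bar at their mean and colour by role. The genes span 8.61 CPM per kb for plk-2 to 693 CPM per kb for cyb-3, and WT replicate 4 is the lowest point for most of them.

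Subunits of one complex were at unlike or like levels depending on the complex. Per kilobase, rnr-2 stood 2.57 to 4.69 times above rnr-1, the large subunit of the same enzyme, over the 16 libraries. The helicase subunit gene mcm-7 stood 2.27 to 2.86 times above mcm-2. In contrast psf-1 and psf-2, of the GINS complex that joins the helicase, had ratios of 0.861 to 1.23, and zen-4 and cyk-4, the kinesin and the GTPase-activating subunits of centralspindlin, 0.81 to 1.29. Among relatives, cyb-3 stood 3.36 to 4.21 times above cyb-1, plk-1 7.79 to 15.2 times above plk-2, and cdk-1 11.003 to 15.2 times above cdk-2 per kilobase. The gene cdc-25.2 stood 2.55 to 5.03 times above cdc-25.1, both for phosphatases that activate cyclin-dependent kinases. The B-type cyclin genes cyb-2.1 and cyb-2.2 are close copies, and their reads may have been split or shared in counting. The ratio of cyb-2.2 to cyb-2.1 stayed between 1.81 and 2.17 in all 16 libraries.

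By position, 15 of the 48 genes are on chromosome I, 7 on II, 13 on III, 6 on IV, 7 on V and 0 on X in WBcel235. Of the tested protein-coding genes, 15.1% are on X. Exons of 29 genes overlap no other annotated gene, 17 genes overlap one on the other strand and 3 overlap one on the same strand, by at most 107 bp. The kit keeps strand, but the strand setting used in counting is not given in the sources used here, so reads in these overlaps may include those of the neighbour.

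No gene of the group passed the test between a mutant and WT. By the quasi-likelihood test of edgeR, with p adjusted by the Benjamini-Hochberg method, the calls were 0 of 48 for edc-3, where 0.142% of all tested genes were called, 0 of 48 for edc-4, also beside 0.142%, and 0 of 48 for the double mutant, beside 0.207%. The DESeq2 Wald test also called 0 in each. At an unadjusted p under 0.05, 1 gene was higher for edc-3 (rnr-1), 3 were higher for edc-4 (psf-1, psf-2 and icp-1) and 1 was higher for the double mutant (psf-3), beside 1.59%, 2.19% and 5.67% of all genes. In that sense 0 of the 48 were lower in each mutant, beside 1.06%, 2.79% and 5.78% of all genes. The log2 fold changes were small and leaned to one side. They were positive for 46 of 48 genes for edc-3, 47 for edc-4 and 48 for the double mutant, where 48.9%, 50.8% and 48.8% of all genes were positive. The medians were 0.12 for edc-3, 0.20 for edc-4 and 0.23 for the double mutant, beside -0.0046, 0.0050 and -0.0097 over all genes. The 3 comparisons share the same 4 WT libraries, so these are not separate observations. Standard errors had a median of 0.17 and ran over 0.10 to 0.31, and 95% intervals lay within 2-fold in either direction for 48 genes for edc-3, 46 for edc-4 and 46 for the double mutant. Groups of libraries that did not overlap were found for 3 of 48 genes in the double mutant, all higher than WT, beside 3.48% of all genes. These were the licensing factor cdt-1, the cyclin E gene cye-1 and the passenger protein gene icp-1. The oocyte list moved the same way, with positive values for 16 of 17 tested genes for edc-3, 17 for edc-4 and 17 for the double mutant and medians of log2 0.30, 0.22 and 0.46, with 3 genes called for edc-3, 0 for edc-4 and 3 for the double mutant, and its part in the values of the 48 genes was not tested. In pellets of whole embryos, fewer cells with a transcript and less transcript per cell cannot be told apart.

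**Figure D2:**
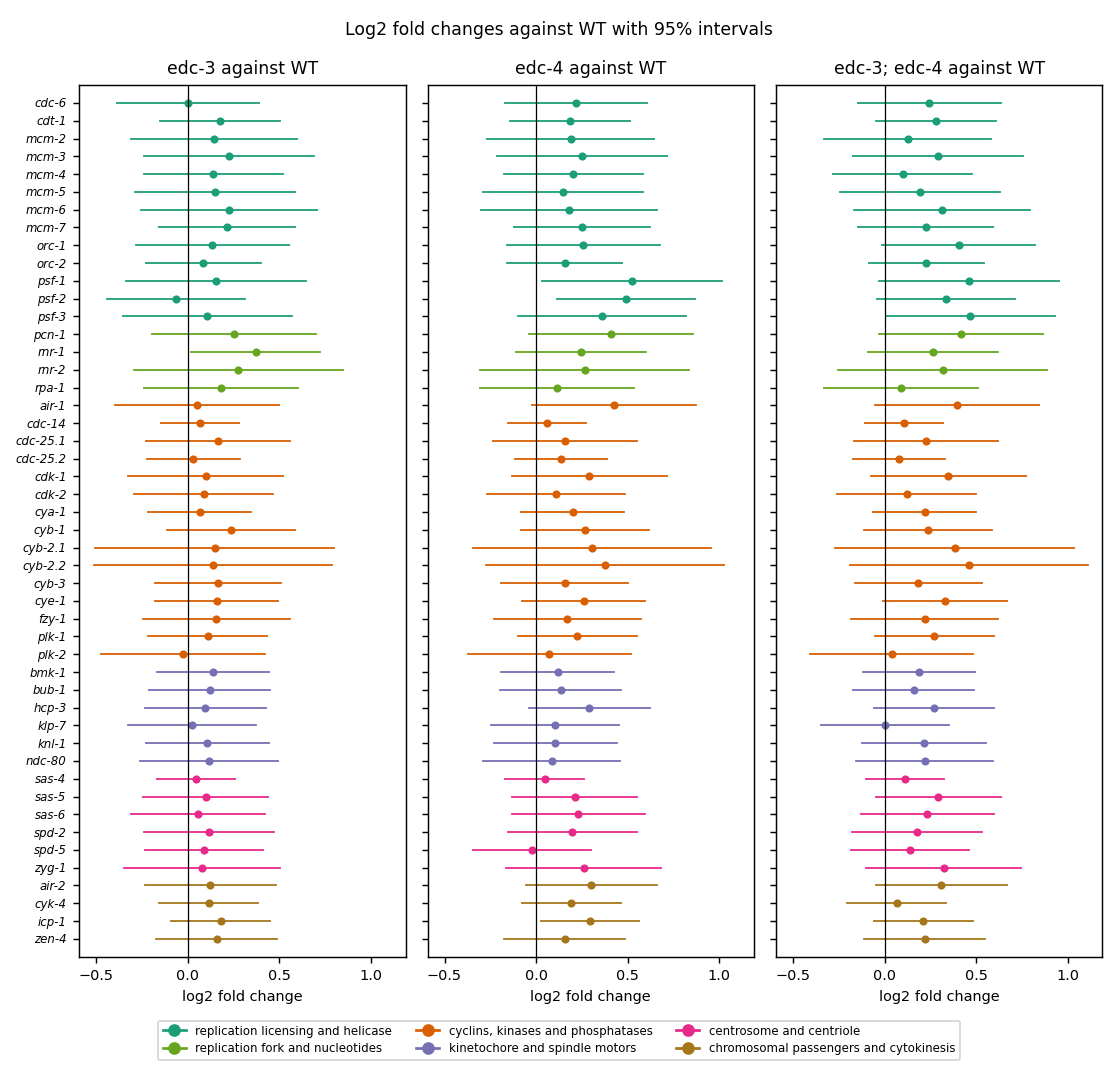
Log2 fold change of each gene (points) with its 95% interval (lines) in edc-3, edc-4 and the double mutant against WT, coloured by role. The points lie mostly right of 0, with medians of 0.12, 0.20 and 0.23, and 139 of the 144 intervals include 0.

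The lean depended on the libraries numbered 4. WT replicate 4 was the lowest of all 16 libraries for 43 of the 48 genes. The highest library was edc-4 replicate 4 for 34 genes and double mutant replicate 4 for 6. Summed over the group, levels reached 12540 CPM in edc-4 replicate 4 and 11860 CPM in double mutant replicate 4, against 6126 CPM in WT replicate 4. Without WT replicate 4 the medians were 0.0012 for edc-3 (25 of 48 positive), 0.072 for edc-4 (39 positive) and 0.11 for the double mutant (41 positive). Without all 4 libraries numbered 4 they were -0.070 for edc-3 (4 positive and 44 negative), -0.052 for edc-4 (15 positive and 33 negative) and 0.018 for the double mutant (29 positive and 19 negative). With the age score as a covariate they were -0.0022, 0.036 and 0.014, with 24, 32 and 28 genes positive. The mean score itself differed by genotype, from -0.35 in the double mutant to 0.42 in WT, so the covariate fit cannot fully tell genotype and score apart. Under each of these settings 0 of the 48 genes were called in each mutant, where few genes of any kind were called. For edc-3, edc-4 and the double mutant these were 19, 20 and 22 of 17092 genes without WT replicate 4. They were 22, 21 and 31 of 16939 without the libraries numbered 4, and 39, 48 and 95 of 16880 with the covariate.

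**Figure D3:**
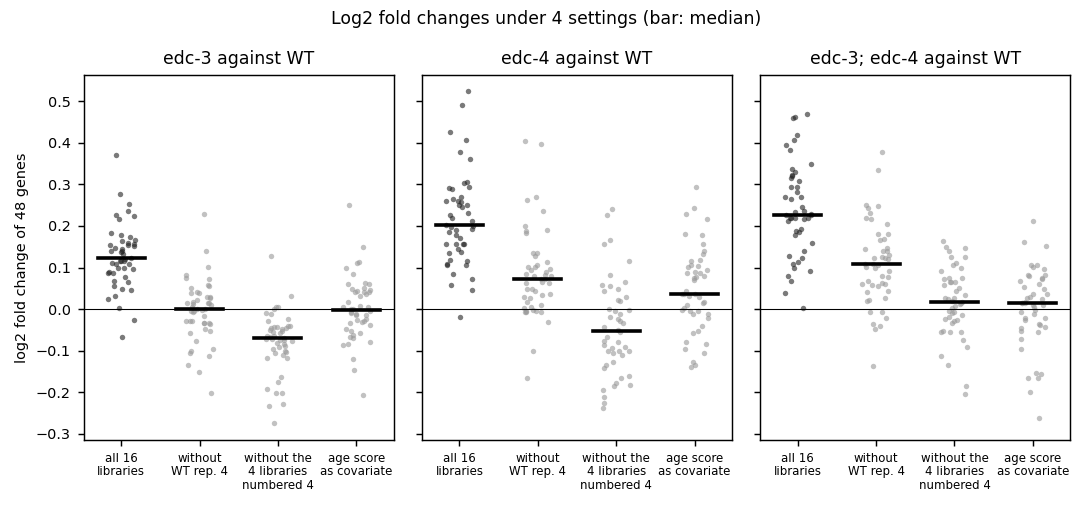
Log2 fold changes of the 48 genes (points) in each mutant against WT under 4 settings, with a bar at the median. With all 16 libraries the medians are 0.12, 0.20 and 0.23, and without the libraries numbered 4 they are -0.070, -0.052 and 0.018.

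Levels of the group followed the embryo age score in every role. In a fit over 16 libraries with a mean per genotype, the slope on the score passed the edgeR quasi-likelihood test (Benjamini-Hochberg adjusted p under 0.05) for 44 of 48 genes. It was negative for 43, beside 27.3% of all tested genes, and positive for 1, klp-7, beside 29.4%. Among the 6580 tested genes within the expression range of the group, 45.3% were called with a negative slope. The median slope was -0.31 on the log2 scale per unit of score, beside 0.057 over all genes, and the score runs from -1.49 to 1.05. Neither list in the score holds any of the 48 genes, but score and levels come from the same libraries. Both lists were also chosen with earlier results of these data known. Without the libraries numbered 4, 30 of the 43 genes were called lower, beside 8.08% of all genes, and all 43 had negative slopes in each of 25 alternative settings. The call was kept in 24 or 25 of the 25 settings by 40 of the 43, and spd-5, icp-1 and sas-4 lost it in more. The oocyte list had a median slope of -0.26, with 5 of 17 tested genes called lower, a share near the 27.3% of all genes. Its summed level in replicate 4 was 1872 CPM in edc-3 and 1553 CPM in edc-4, the latter the highest of the edc-4 libraries. In the double mutant it was lowest in replicate 4, at 1609 CPM, and it was lowest of all in WT replicate 4, at 473 CPM. Its part in the slopes was not tested.

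**Figure D4:**
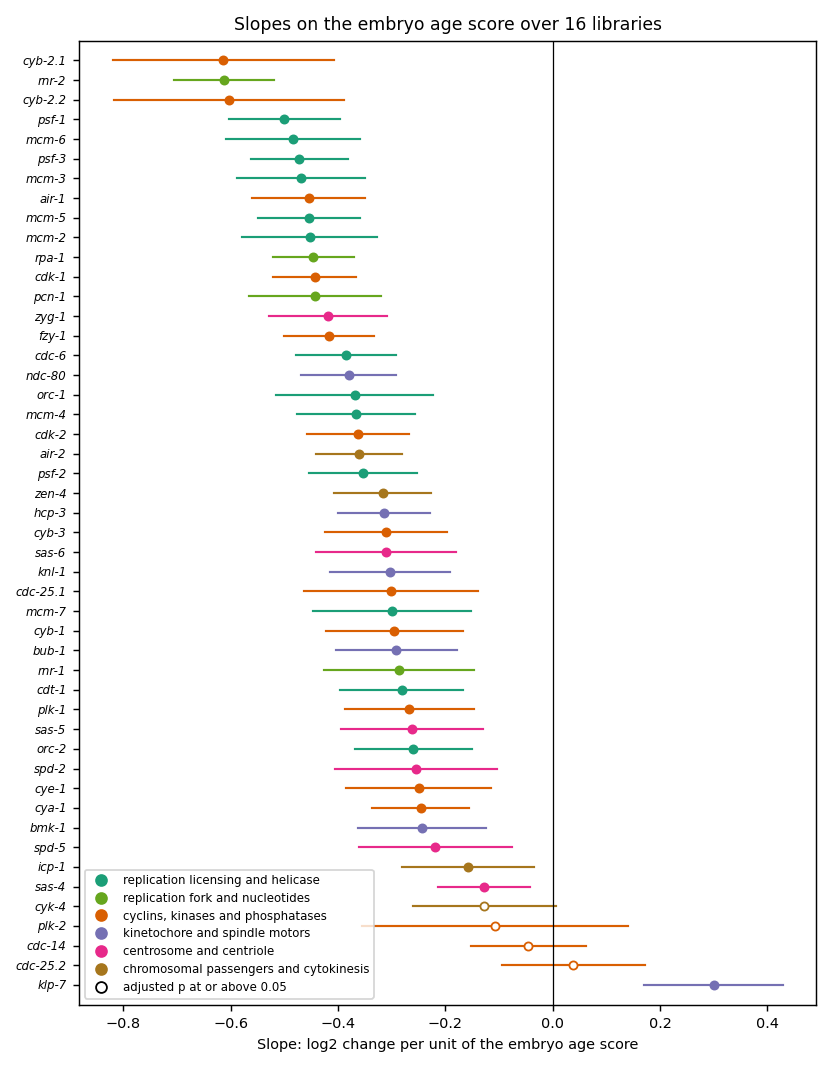
Slope of each gene on the embryo age score (log2 change per unit of score, 16 libraries, mean per genotype in the fit) with its 95% interval, coloured by role, with open points where the adjusted p is 0.05 or above. Slopes run from -0.61 for cyb-2.1 to 0.30 for klp-7, with 43 called below 0 and 1 above.

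Licensing and helicase genes, 13 in all, each fell with the score, with a median slope of -0.39. These are mcm-2 to mcm-7, the 6 subunits of the helicase, orc-1 and orc-2 of the origin recognition complex, the helicase loaders cdc-6 and cdt-1, and psf-1, psf-2 and psf-3 of GINS. The highest fold changes of the whole group were those of psf-3 and psf-1 in the double mutant and of psf-1 and psf-2 in edc-4. The gene psf-1 (chromosome II, 9968673 to 9969630) had 19.2, 24.7, 28.5 and 20.02 CPM in edc-3, 20.9, 24.97, 44.3 and 29.4 CPM in edc-4 and 26.1, 22.7, 40.1 and 25.5 CPM in the double mutant, against 24.6, 25.7, 15.1 and 17.7 CPM in WT. Replicate 4 was the highest library in the double mutant and in edc-4 and the lowest in WT, and the mutant libraries overlapped the WT range. The difference from WT was 1.44-fold in edc-4 (log2 0.52, SE 0.23, adjusted p = 0.831) and did not pass the edgeR quasi-likelihood test there or in the double mutant (log2 0.46, SE 0.23, adjusted p = 0.448). Its slope was among the 4 steepest (slope -0.50, SE 0.049, adjusted p = 2.19e-07). The gene psf-2 (chromosome I, 15053010 to 15053672) had 17.6, 19.04, 21.9 and 16.4 CPM in edc-3, 19.6, 26.4, 37.7 and 26.3 CPM in edc-4 and 22.9, 20.8, 29.9 and 25.26 CPM in the double mutant, against 19.7, 24.2, 16.04 and 18.4 CPM in WT. All 4 edc-3 libraries lay within the WT range, and 3 of 4 edc-4 libraries lay above the highest WT library. Its differences were log2 0.49 in edc-4 and -0.066 in edc-3, the lowest of the group in edc-3, and neither passed. The gene psf-3 (chromosome I, 534455 to 535344) had 21.2, 24.6, 28.1 and 20.8 CPM in edc-3, 19.6, 23.5, 40.6 and 29.3 CPM in edc-4 and 27.3, 21.99, 43.8 and 28.5 CPM in the double mutant, against 23.3, 26.2, 17.7 and 20.6 CPM in WT. In the double mutant it had the highest fold change of the group (log2 0.47, SE 0.22, adjusted p = 0.429), with replicate 4 far above the other 3 libraries, and it did not pass. Per kilobase mcm-7 (chromosome V, 4347166 to 4349768) was the highest of the licensing genes. It had 552, 700.1, 657 and 455 CPM in edc-3, 475, 580.2, 735 and 631 CPM in edc-4 and 602, 586, 655 and 536 CPM in the double mutant, against 595, 593, 333 and 515 CPM in WT. WT replicate 4 was the lowest of all libraries, and otherwise the groups overlapped. Its slope was -0.30 (adjusted p = 0.00144), against -0.48 for mcm-6, -0.47 for mcm-3, -0.45 for mcm-5, -0.45 for mcm-2 and -0.37 for mcm-4. The loaders cdc-6 and cdt-1 had slopes of -0.39 and -0.28, and orc-1 and orc-2 slopes of -0.37 and -0.26.

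The 4 genes of the replication fork and of nucleotide supply all fell with the score, with a median slope of -0.44. The gene rnr-2 (chromosome III, 4093308 to 4094921) had 527, 620.2, 791 and 503 CPM in edc-3, 384, 486, 963 and 589.6 CPM in edc-4 and 553, 515, 950.2 and 495 CPM in the double mutant, against 560.2, 683, 352 and 419.9 CPM in WT. The 3 mutant libraries numbered 4 were the highest of all, WT replicate 4 was the lowest, and the other libraries overlapped between genotypes. The difference from WT was log2 0.28 for edc-3 (SE 0.27), 0.27 for edc-4 (SE 0.27) and 0.32 for the double mutant (SE 0.27), and none passed. Its slope was -0.61 (SE 0.045), which is a fall to 0.654 of the level per unit of score, with the lowest adjusted p of the group (1.33e-08, edgeR quasi-likelihood test). The gene rnr-1 (chromosome III, 9225339 to 9228798) had 344, 424, 455 and 292 CPM in edc-3, 274, 327, 412 and 378 CPM in edc-4 and 354, 361, 385 and 309 CPM in the double mutant, against 339, 321, 202 and 311 CPM in WT. In edc-3 it had the highest fold change of the group (log2 0.37, SE 0.17, adjusted p = 0.9999), with 3 of 4 libraries above all WT libraries, and did not pass. Its slope of -0.29 was shallower than that of rnr-2. The clamp gene pcn-1, which holds the polymerase on DNA, and rpa-1, for the protein that coats single-stranded DNA, had slopes of -0.44 and -0.45. In the double mutant pcn-1 averaged 264 ± 47.3 CPM, against 198 ± 54.9 CPM in WT (SD, n = 4 each), and the difference of log2 0.42 (SE 0.21) did not pass.

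**Figure D5:**
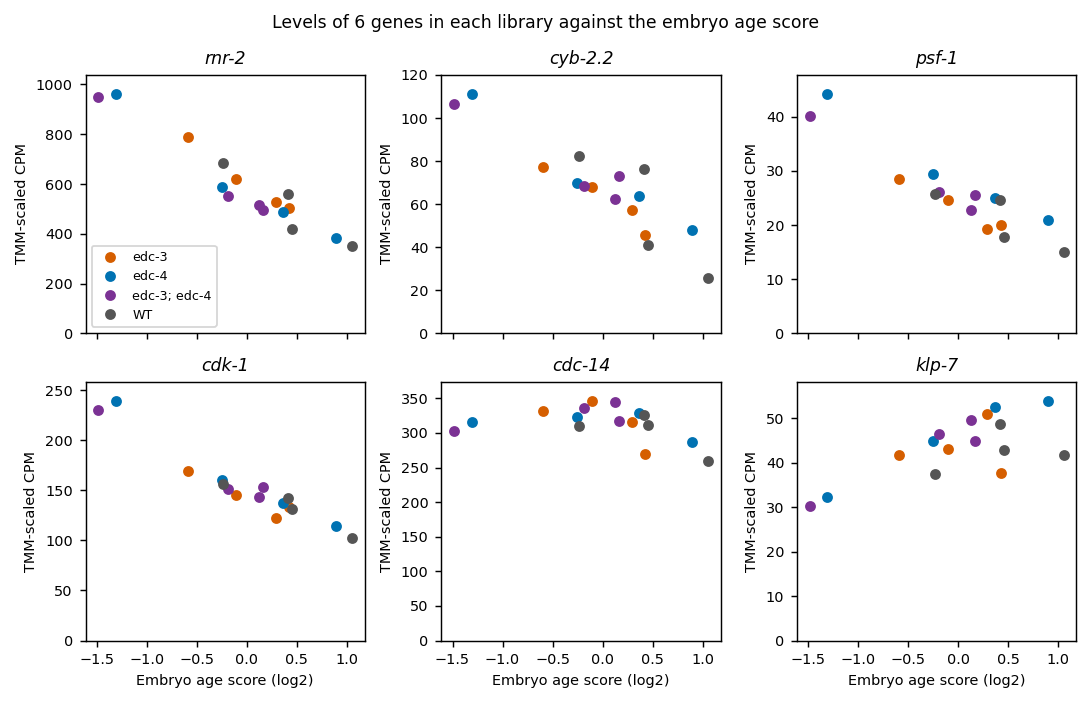
TMM-scaled CPM of 6 genes (axes start at 0) against the embryo age score (log2) in each of the 16 libraries, coloured by genotype. Levels of rnr-2, cyb-2.2, psf-1 and cdk-1 fall along the score, in the double mutant mainly through replicate 4. The gene cdc-14 stays between 260.1 and 346 CPM, and klp-7 is lowest in the 2 libraries of lowest score.

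Cyclins, kinases and phosphatases formed the largest role, and 12 of 15 fell with the score. The closely related B-type cyclin genes cyb-2.1 (chromosome IV, 10985985 to 10987426) and cyb-2.2 (chromosome I, 4114861 to 4116370) spread most among replicates, with within-genotype SDs of 0.53 each on the log2 scale, beside a group median of 0.27. The gene cyb-2.1 had 27.9, 32.5, 36.8 and 23.9 CPM in edc-3, 21.6, 28.4, 53.02 and 32.4 CPM in edc-4 and 32.96, 28.3, 49.3 and 32.1 CPM in the double mutant, against 37.9, 38.6, 12.4 and 20.5 CPM in WT. The gene cyb-2.2 had 57.3, 67.99, 77.4 and 45.5 CPM in edc-3, 48.09, 63.99, 111 and 69.7 CPM in edc-4 and 68.5, 62.2, 106 and 73.1 CPM in the double mutant, against 76.5, 82.4, 25.6 and 41.1 CPM in WT. For both genes, WT replicate 3 stood above every mutant library except replicate 4 of edc-4 and of the double mutant, and WT replicate 4 stood below every mutant library. Fold changes in the double mutant were log2 0.38 (SE 0.31) and 0.46 (SE 0.31), neither called, and slopes were -0.61 and -0.60, 2 of the 3 steepest of the group. The gene cyb-3 (chromosome V, 15395696 to 15397353), the highest per kilobase, had 1044, 1266, 1324 and 909 CPM in edc-3, 894, 1030, 1397 and 1192 CPM in edc-4 and 1107, 1080, 1316 and 1102 CPM in the double mutant, against 1074, 1199, 734 and 1044 CPM in WT. Apart from WT replicate 4 its libraries overlapped in all genotypes, and its slope was -0.31 (adjusted p = 9.88e-05). The mitotic kinase gene cdk-1 fell with a slope of -0.44, cyclin A (cya-1) with -0.25, cyclin B (cyb-1) with -0.29 and cyclin E (cye-1) with -0.25. In the double mutant cye-1 averaged 46.4 ± 1.54 CPM, against 36.95 ± 8.39 CPM in WT (SD, n = 4 each). All 4 libraries were above the WT ones, but only after TMM scaling, and the difference (log2 0.33, SE 0.16) did not pass. The gene cdk-2 (chromosome I, 3410013 to 3416368) had 21.2, 23.7, 27.4 and 22.2 CPM in edc-3, 18.002, 21.03, 33.3 and 23.6 CPM in edc-4 and 24.9, 19.4, 29.7 and 22.7 CPM in the double mutant, against 24.2, 26.7, 18.4 and 19.6 CPM in WT, with overlap between all groups. Its slope of -0.36 was called, and it overlaps K03E5.9 by 100 bp on the same strand.

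The Polo kinase genes and the CDC25 phosphatase genes each held a member that fell and one that was not called. The gene plk-1 (chromosome III, 8101348 to 8104069), needed for centrosome maturation and mitosis, had 187, 227, 220.5 and 170.0 CPM in edc-3, 177, 211, 264 and 220.4 CPM in edc-4 and 213, 205, 252 and 229 CPM in the double mutant, against 208, 215, 128 and 195 CPM in WT. Its slope was -0.27 (adjusted p = 0.000688). The gene plk-2 (chromosome I, 2755540 to 2758204) had 18.5, 22.01, 21.2 and 11.97 CPM in edc-3, 17.6, 21.7, 20.1 and 19.4 CPM in edc-4 and 19.5, 19.8, 15.8 and 21.8 CPM in the double mutant, against 25.34, 21.8, 11.5 and 16.3 CPM in WT. WT held both the highest and the lowest library of plk-2, its slope was -0.11 (95% interval -0.36 to 0.14), and its fold changes were log2 0.039 in the double mutant and -0.025 in edc-3. The gene cdc-25.1 (chromosome I, 6469386 to 6471922), which acts in the germ line and early embryo, had 63.1, 82.6, 78.96 and 52.8 CPM in edc-3, 54.9, 67.6, 84.1 and 69.6 CPM in edc-4 and 69.3, 68.04, 77.6 and 74.8 CPM in the double mutant, against 74.4, 78.2, 39.4 and 55.6 CPM in WT. WT replicate 4 was lowest and the slope was -0.30 (adjusted p = 0.00289). The gene cdc-25.2 (chromosome V, 1567076 to 1585532) had 227, 245, 226 and 175 CPM in edc-3, 236, 249.7, 222 and 230.2 CPM in edc-4 and 253, 249, 186 and 213 CPM in the double mutant, against 236, 215, 186 and 216 CPM in WT. Here edc-3 replicate 5 was lowest, the groups overlapped, and the slope was 0.039 (95% interval -0.10 to 0.17). The phosphatase gene cdc-14 (chromosome II, 5589038 to 5593427), which in yeast reverses kinase action at the exit from mitosis, had 316, 346, 332 and 269 CPM in edc-3, 287, 329, 316 and 323 CPM in edc-4 and 336, 345, 302 and 317 CPM in the double mutant, against 326, 309, 260.1 and 311 CPM in WT. Its libraries differed by 1.33-fold at most, with WT replicate 4 lowest, and its slope of -0.045 (95% interval -0.15 to 0.062) did not pass. The slopes of these pairs were not tested against each other. The Aurora A kinase gene air-1 and fzy-1, an activator of the complex that marks cyclins for destruction, fell with slopes of -0.45 and -0.42.

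Of 6 kinetochore and spindle motor genes 5 fell with the score and 1 rose. The fallers were ndc-80, whose protein binds microtubules at the kinetochore (slope -0.38), hcp-3 for the centromeric histone (-0.32), knl-1 for the kinetochore scaffold (-0.30), the checkpoint kinase gene bub-1 (-0.29) and bmk-1, a spindle motor of the kinesin-5 family (-0.24). The one riser, klp-7 (chromosome III, 10805925 to 10811001), had 50.9, 42.98, 41.8 and 37.7 CPM in edc-3, 53.8, 52.4, 32.3 and 44.8 CPM in edc-4 and 46.4, 49.6, 30.3 and 44.7 CPM in the double mutant, against 48.6, 37.4, 41.7 and 42.9 CPM in WT. The replicates numbered 4 of edc-4 and of the double mutant were the lowest of the 16 libraries, edc-4 replicate 2 the highest, and all genotypes overlapped. Its slope was 0.30 (SE 0.061, adjusted p = 0.000457, edgeR quasi-likelihood test), but without the libraries numbered 4 it was 0.23 and did not pass (adjusted p = 0.197). Its fold change in the double mutant was the smallest of the group (log2 0.0039, SE 0.17).

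All 6 centrosome and centriole genes fell, with a median slope of -0.26. The kinase gene zyg-1, which starts centriole duplication, had the steepest slope (-0.42), then sas-6 (-0.31) and sas-5 (-0.26), whose proteins form the first centriole structure, and spd-2 (-0.25), needed for centrosome maturation. The gene spd-5 (chromosome I, 5171275 to 5176654), for the scaffold of the pericentriolar material, had 199, 257, 234 and 189 CPM in edc-3, 161, 207, 238 and 210.2 CPM in edc-4 and 211, 217, 237 and 245 CPM in the double mutant, against 225, 232, 141 and 229 CPM in WT. Its lowest libraries were replicate 4 of WT and replicate 2 of edc-4. In edc-4 it had the lowest fold change of the group (log2 -0.020, SE 0.15, adjusted p = 0.978), and its slope was -0.22 (adjusted p = 0.0108). Without edc-4 replicate 2 the slope was -0.19 (adjusted p = 0.0535) and without the libraries numbered 4 it was -0.28 (adjusted p = 0.115). The gene sas-4 (chromosome III, 8314349 to 8318588), needed to add the outer centriole wall, had 68.2, 76.4, 78.3 and 69.1 CPM in edc-3, 61.8, 71.96, 80.5 and 78.1 CPM in edc-4 and 74.9, 76.9, 80.5 and 73.5 CPM in the double mutant, against 69.4, 69.9, 63.2 and 80.4 CPM in WT. Its libraries differed by 1.303-fold at most and overlapped in all groups. The fold change in edc-4 was log2 0.047 (SE 0.10), and the slope of -0.13 was the shallowest that passed (adjusted p = 0.0126). It was -0.099 without edc-4 replicate 2 (adjusted p = 0.0806) and -0.16 without the libraries numbered 4 (adjusted p = 0.274), and did not pass in either.

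Of the 4 passenger and cytokinesis genes 3 fell with the score. The Aurora B kinase gene air-2 had a slope of -0.36, zen-4 one of -0.32 and icp-1, for the inner centromere protein that carries the kinase, one of -0.16 (adjusted p = 0.028). The fourth, cyk-4, had a slope of -0.13 (95% interval -0.26 to 0.0060) that did not pass. Without replicate 3 or 4 of the double mutant that slope was -0.17 or -0.19 and passed (adjusted p = 0.0396 and 0.0354), as it did by DESeq2 (-0.15, adjusted p = 0.0462) and with a replicate block (-0.21, adjusted p = 0.0195). The slope of icp-1 was -0.14 without edc-3 replicate 4, -0.14 without edc-4 replicate 2 and -0.12 without WT replicate 4, and did not pass in these fits (adjusted p = 0.0587, 0.0955 and 0.061). Without the libraries numbered 4 it was -0.25 (adjusted p = 0.113) and with the score from the muscle list alone -0.30 (adjusted p = 0.0632), and it passed in neither. In the double mutant icp-1 averaged 179 ± 0.521 CPM, against 154 ± 24.4 CPM in WT (SD, n = 4 each). After TMM scaling the double mutant libraries lay between 178 and 179 CPM, all above the highest WT library at 176 CPM, and without it they overlapped. The difference of log2 0.21 (SE 0.13) did not pass.

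Setting the double mutant against each single mutant asked what the second allele added. The edgeR quasi-likelihood test called 0 of 48 genes against edc-3, beside 0.0355% of all genes, and 0 of 48 against edc-4, beside 0.0296%. At an unadjusted p under 0.05 1 gene was higher in the double mutant than in edc-3 (beside 2.35% of all genes) and 0 lower (beside 2.65%), and 0 were higher or lower than in edc-4 (beside 1.61% and 1.2%). The DESeq2 Wald test called 0 in both. The median log2 difference was 0.068 from edc-3 and 0.037 from edc-4, with 42 and 33 genes positive, beside 49.1% and 47.5% of all genes. Without edc-4 replicate 2 the median difference from edc-4 was -0.088, and without double mutant replicate 4 it was -0.087. The furthest gene from edc-3 was psf-2, at 24.7 ± 3.89 CPM in the double mutant and 18.7 ± 2.37 CPM in edc-3 (SD over 4 libraries each), a log2 difference of 0.40. The interaction of both alleles, which is the double mutant difference beyond the sum of the single ones, was called for 0 of 48 genes, beside 0.0355%, with 0 above and 0 below at an unadjusted p under 0.05 (beside 0.871% and 0.752% of all genes) and 0 by DESeq2. Its median was -0.089, with rnr-1 lowest at -0.35. Without the libraries numbered 4 the median interaction was 0.14 and 43 genes were positive, against 7 with all libraries, where 45.4% of all genes were positive. Without WT replicate 4 alone it was 0.045.

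Within each genotype most slopes were negative, for 47 genes for edc-3, 46 for edc-4 and 43 for the double mutant, and for 47 in WT, beside 47.5%, 46.0%, 47% and 46.5% of all genes. Fitted separately in 1 model, a choice made after the data were seen, the median slope was -0.46 for edc-3, -0.30 for edc-4 and -0.21 for the double mutant, against -0.54 in WT. By the edgeR quasi-likelihood test 0 genes were called for edc-3, where 0.0% of all genes were called, 39 fell and 1 (klp-7) rose for edc-4, beside 20.1% and 19.1%, and 20 fell and 1 (klp-7) rose for the double mutant, beside 12.2% and 8.25%. In WT 39 fell, beside 11.8%. The edc-3 libraries spanned the narrowest range of the score, -0.59 to 0.42, and 42 genes had a negative slope there at an unadjusted p under 0.05, beside 13.5% of all genes. The slopes in each mutant minus those in WT were called for 0 of 48 genes, beside 0.0% of all genes for edc-3, 0.0% for edc-4 and 0.00592% for the double mutant. At an unadjusted p under 0.05, 0 of 48 slopes were higher than in WT for edc-3, 10 for edc-4 and 20 for the double mutant, beside 2.35%, 6.04% and 9.0% of all genes. The 48 genes share these libraries, so the counts are not separate observations. In the double mutant, replicate 4 scored -1.49 and the other libraries -0.19, 0.12 and 0.16, so its slopes rest largely on replicate 4. In WT, replicate 4 scored 1.05 and the other libraries -0.24 to 0.45. The lowest adjusted p was 0.205 in the double mutant, with cye-1 at a difference of 0.58 (SE 0.17) and cdc-25.1 at 0.69 (SE 0.20).

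Other genes of the same processes were read from lists of replication, kinetochore and checkpoint, chromosome structure, cell cycle control, spindle and cytokinesis genes, of which 182 were tested. In each mutant against WT 0 of 182 were called, beside 0.142% of all genes for edc-3, 0.142% for edc-4 and 0.207% for the double mutant. The median log2 fold changes were 0.079 for edc-3, 0.16 for edc-4 and 0.16 for the double mutant, beside -0.0046, 0.0050 and -0.0097 over all genes. Values were positive for 149, 158 and 164 of the 182. Their dependence on the libraries numbered 4 was not tested. On the score 127 fell and 11 rose, with a median slope of -0.27, where 27.3% of all tested genes fell and 29.4% rose. Of 46 listed replication genes 34 were found in the deposited counts, and 33 of these fell. Among them were sld-2, an initiation factor (slope -0.49, SE 0.044), and ctf-4, which links helicase and polymerase (slope -0.48, SE 0.041). Kinetochore and checkpoint genes fell in 23 of 27, including kbp-3 and kbp-1 of the NDC-80 network, with slopes of -0.53 and -0.50. Chromosome structure genes fell in 19 of 24, among them the condensin gene capg-2 (slope -0.45). Cell cycle control genes fell in 25 of 38 and rose in 3. The fallers included wee-1.1, of the Wee1 kinase family (slope -0.68), and cdc-25.3 (slope -0.62), and the risers cki-1, an inhibitor of cyclin-dependent kinases that keeps cells from dividing (slope 0.27, SE 0.047, adjusted p = 9.42e-05, edgeR quasi-likelihood test), and cdc-25.4 (slope 0.42, adjusted p = 0.0499). Spindle genes fell in 20 of 39 and rose in 5, with mei-2, a subunit of the microtubule-severing katanin of the meiotic spindle, and mzt-1 of the gamma-tubulin complex falling (slopes -0.43 and -0.39) and zyg-8 and bicd-1 rising (slopes 0.26 and 0.23). Of 20 genes on the cytokinesis list 7 fell, a share near that of all genes, including nop-1 and the septin gene unc-61 (slopes -0.44 and -0.33), and 3 rose. The steepest risers on that list were the kinesin-2 gene klp-20 and tes-1 (slopes 0.29 and 0.17), whose part in cytokinesis was not checked.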

How the data were processed

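Total RNA of mixed-stage C. elegans embryos was sequenced in 16 libraries, 4 for each genotype, and each library was placed by the genotype in its labels. The values are unnormalised read counts of each gene, deposited by the authors as a single table. Per the submitters' processing notes, Trimmomatic, STAR, HTSeq, edgeR and limma were used with the WBcel235 genome. No version is given in the sources used here, nor whether HTSeq counted by strand.

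In R 4.3.3, edgeR 4.0.16 was run on these counts. Its filterByExpr function (minimum count 10, minimum total 15) kept 16880 of 46726 genes, and TMM factors scaled the libraries. All 16 libraries entered 1 quasi-likelihood fit with a mean per genotype, so the groups share an estimate of the spread. P-values were adjusted over all tested genes by the Benjamini-Hochberg method, with a threshold of 0.05. The slope test added the age score to that fit, with log2 CPM at a prior count of 2 in the score. Levels per kilobase used exon lengths of the Ensembl annotation of WBcel235. The DESeq2 1.42.0 Wald test, other scalings, no filter, smaller fits, a replicate block, the score as covariate and fits without single libraries or the libraries numbered 4 were alternatives. Scripts were tested on simulated data. No 2 libraries held identical counts. Between any 2 replicates of the same genotype the chi-square per degree of freedom was 11.2 or more, above sampling noise.

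The members, roles and lists were chosen with earlier results of these data known, so counts over them are descriptions. Values in every library are given for the 4 steepest falls and rises on the score, the 2 highest and 2 lowest fold changes of each mutant, the 3 highest and 3 lowest levels per kilobase, the 2 largest replicate spreads and 3 paralogue pairs. Other genes of the 48 may be named with single values, and means of pcn-1, cye-1 and icp-1 were added after their values were seen. From each other list up to 2 rises and 2 falls past the threshold were named.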

Additional observations from a re-analysis of the deposited data

Results flagged for a closer look

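Within a genotype of 4 libraries, a library was singled out where its gap in log2 CPM to the nearest of the others was a larger share of the whole range than Dixon's 95% critical value. Of 192 sets of 4 libraries (48 genes in 4 genotypes) 21 were singled out. Chance gives about 1 in 20 for independent sets, but all 48 genes were read in the same 16 libraries, so these sets are not independent. The share singled out over all tested genes was not computed. Of the 21, 12 were double mutant replicate 4 as the highest library, 8 were WT replicate 4 as the lowest and 1 was double mutant replicate 3 as the highest.

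In double mutant replicate 4 the replication genes singled out were mcm-3 at 415 CPM, mcm-4 at 328 CPM, orc-2 at 63.8 CPM, pcn-1 at 335 CPM, rnr-2 at 950.2 CPM and rpa-1 at 496 CPM. The next library of the double mutant held 294, 264, 50.95, 247, 553 and 337 CPM of them. The division genes singled out there were cdk-1 at 229.9 CPM, cya-1 at 214 CPM, cyb-3 at 1316 CPM, fzy-1 at 270.2 CPM, knl-1 at 315 CPM and zen-4 at 413 CPM. The next library held 154, 183, 1107, 194, 258 and 322 CPM. Double mutant replicate 4 also had the lowest age score of all 16 libraries, -1.49.

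In WT replicate 4 the genes singled out were cdt-1 at 85.8 CPM, rnr-1 at 202 CPM, bub-1 at 222 CPM, bmk-1 at 146.55 CPM, spd-5 at 141 CPM, sas-5 at 34.1 CPM, sas-6 at 38.9 CPM and zen-4 at 217 CPM. The nearest other WT library held 128, 311, 341, 212, 225, 54.95, 64.2 and 308 CPM of them. WT replicate 4 had the highest age score of all 16 libraries, 1.05. In double mutant replicate 3, cyk-4 was at 236 CPM, where the nearest other library held 216 CPM. Of the 21, 20 thus lie in the 2 libraries at the ends of the age score, and the part of embryo age in them was not tested.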

How the results depend on the processing

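Over 103 alternative fits of the genotype comparisons, 0 of the 48 genes were called in any, but the medians were not stable. Without the libraries numbered 4 the median turned to -0.070 for edc-3 (0.12 with all libraries), -0.052 for edc-4 (0.20) and 0.14 for the interaction (-0.089). When 1 library was left out, the median ran over 0.0012 to 0.21 for edc-3, 0.067 to 0.31 for edc-4 and 0.11 to 0.299 for the double mutant, each against WT, over 0.0056 to 0.18 and -0.088 to 0.17 for the double mutant against edc-3 and edc-4, and over -0.21 to 0.045 for the interaction. With library sizes alone the median was 0.19 for the double mutant, where that of all genes was -0.065. It was 0.018 against edc-3 with 30 genes positive and -0.0076 against edc-4 with 23 positive. On the age score, the count of 44 called genes was 0 for slopes within edc-3 and 21 within the double mutant, where each slope rests on 4 libraries. The median slope of -0.31 was -0.64 with the score from the muscle list alone and -0.58 from the early zygotic list alone, which have other units. Calls over all genes were 24, 24 and 35 for edc-3, edc-4 and the double mutant. They were 14, 7 and 28 with only the groups compared, 40, 30 and 65 without a filter on low counts, and by DESeq2 39, 42 and, for the double mutant, 81 higher and 32 lower.

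Replicate numbers are shared by the genotypes, but the labels do not say that a number marks a shared day or batch. The deviations of the 24 same-numbered pairs correlated between -0.49 and 0.66, with 11 above 0.1, so the numbers were not taken to pair the libraries. The 3 mutant libraries numbered 4 correlated at 0.47 to 0.66 with each other, and a factor they share was not tested. With the replicate block 0 genes of the group were called in each genotype comparison. The medians were 0.11 (edc-3), 0.18 (edc-4) and 0.22 (double mutant). In the same setting 45 slopes of the group were called, 44 of them negative, with a median slope of -0.39. Over all 16880 tested genes 9085 slopes were called, 4489 of them negative, with a median slope of 0.056.

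The lowest count of any of the 48 genes in any library was 568. With 4 libraries per genotype, standard errors against WT were 0.10 to 0.31 on the log2 scale, and differences of up to 0.52 (psf-1 in edc-4, SE 0.23) did not pass.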

Other observations

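Most epidermis and neuron genes, which are outside the score, rose along it while the division genes fell. Over all tested genes 29.4% rose and 27.3% fell. Of 14 tested epidermis genes 13 rose, with the collagen genes rol-6 and sqt-3 at slopes of 0.61 and 0.60. Of 17 neuron genes 15 rose, among them egl-3, a neuropeptide processing enzyme, and unc-17, the vesicular acetylcholine transporter (slopes 0.58 and 0.57), and 1 fell, unc-119 (slope -0.14). Of 11 intestine genes 5 rose, including the protease gene asp-1 and the intermediate filament gene ifb-2 (slopes 0.65 and 0.49), and 0 fell. Among 17 tested oocyte genes 5 fell, a share near that of all genes, including the RNA-binding protein genes pos-1 and puf-11 (slopes -0.47 and -0.45). All calls use edgeR's quasi-likelihood test and Benjamini-Hochberg adjusted p-values. Of the lists in the score itself 36 of 38 muscle genes rose and 36 of 40 early zygotic genes fell, which its construction favours. Of the 3 tested sperm genes 1 fell (msp-76, slope -0.74), and the 1 tested yolk gene, vit-1, rose (slope 0.62).

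In each mutant against WT, 0 genes of the epidermis, neuron, muscle and intestine lists were called. Of 17 oocyte genes 3 were called higher in the double mutant, 3 in edc-3 and 0 in edc-4, beside 0.207%, 0.142% and 0.142% of all genes called in either direction. The chitin synthase gene chs-1, needed for the eggshell, had log2 fold changes of 2.38 in the double mutant and 2.29 in edc-3 (SE 0.26 each), and egg-1, for an oocyte surface protein needed for fertilisation, had 2.03 and 1.83 (SE 0.35 each). For egg-1 the adjusted p was 0.0126 in the double mutant and 0.040 in edc-3 (edgeR quasi-likelihood test). The median log2 fold change in the double mutant was -0.14 for epidermis, -0.27 for neurons, -0.32 for muscle and -0.40 for intestine, against 0.23 for the 48 division genes.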
